A study of Mus musculus with 9 samples.

Results

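Immunoglobulin and T cell receptor genes are built from separate segments of the genome, and 157 such segments were found in RNA of sorted bone marrow stem and progenitor cells. They were taken as the rows whose biotype in the deposited gene table begins with IG_ or TR_ and does not name a pseudogene, and that held at least 20 expected counts summed over the 9 libraries. Of 38215 rows in the table, 477 had such a biotype, and 157 of these reached the threshold, 62 lay above 0 but under it and 258 were at 0 in every library. The 157 were thus chosen by their summed count, so that they are expressed somewhere is no finding; how they differ between libraries was not used to choose them. Of the 157, 147 were variable (V) segments, 9 were constant (C) segments and 1 was listed as a joining (J) segment. The heavy chain locus Igh held 78 of them, the kappa light chain locus Igk 67, the lambda locus Igl 3, and the T cell receptor loci Trb 5, Tra/Trd 2 and Trg 2. Just inside the threshold lay Igkv12-89, Trav13-4-dv7 and Trbv1 with 20 counts each, and just outside it lay Trav4d-4, Trav4n-4 and Ighv9-1 with 16 each.

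The RNA came from C57BL/6J mice, all with the Jak2V617F mutation, an activating change in a cytokine receptor kinase, and all treated with tamoxifen. Bone marrow was sorted for cells without lineage markers and with Sca1 and Kit (LSK cells), double positive for GFP and mCherry, and the libraries were made from polyadenylated RNA. The 5 mice called EV carried Jak2V617F alone and the 4 called sgZrsr2 (mice 1, 2, 3 and 5) carried Jak2V617F together with sgZrsr2. The series calls this Zrsr2 loss; the Zrsr2 protein acts in the minor spliceosome. The labels spell out neither EV nor sg, and the age of the mice, what tamoxifen acted on and the carriers of both fluorescent markers are not given in the sources used here. Each library carries the number of 1 mouse, and the p-values below measure the spread between these 9 libraries. Where values of every library are listed, those of the EV libraries follow the order of mice 1 to 5 and those of the sgZrsr2 libraries the order of mice 1, 2, 3 and 5.

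In a lymphocyte that matures, the RAG recombinase joins V, D and J segments of a receptor locus into 1 exon, which is then spliced to a constant segment downstream. A joined heavy or light chain therefore gives reads on 1 V segment and on 1 constant segment, and the descendants of a single B cell share the same V segments. Constant segments are also transcribed without a joined V segment: the Igh locus gives so-called sterile transcripts that run from its enhancer or from the start of each constant segment. In the bone marrow the highest amounts of joined immunoglobulin RNA are made by plasma cells, antibody-secreting cells that live there for long periods. Ighm codes for the heavy chain of IgM, Igha for that of IgA, the Ighg genes for those of the IgG classes, and Igkc for the constant part of kappa light chains.

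The letters of the V segments that led the libraries are shown because they held the largest shares of the V counts of 3 EV libraries; some were also counted in other libraries. They are germline reference sequence of GENCODE M21 (GRCm38), not sequence read in these mice, and they end where the V segment ends and a D or J segment would be joined. Each line runs 5′ to 3′ from 60 bases before the last in-frame TGT or TGC, in capitals, to the end of the coding exon; this triplet is the codon for the conserved cysteine of V domains. Ighv1-78 and Igkv14-111 led in EV mouse 3, Ighv1-74 and Igkv12-46 in EV mouse 4, and Ighv5-16 and Igkv1-88 in EV mouse 5:
Ighv1-78: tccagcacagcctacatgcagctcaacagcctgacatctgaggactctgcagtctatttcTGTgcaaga
Igkv14-111: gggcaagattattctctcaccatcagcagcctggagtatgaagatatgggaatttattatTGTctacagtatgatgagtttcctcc
Ighv1-74: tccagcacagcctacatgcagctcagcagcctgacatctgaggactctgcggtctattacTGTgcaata
Igkv12-46: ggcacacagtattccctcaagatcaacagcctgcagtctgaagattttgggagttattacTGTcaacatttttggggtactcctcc
Ighv5-16: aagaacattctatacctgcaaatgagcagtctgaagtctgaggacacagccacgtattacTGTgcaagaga
Igkv1-88: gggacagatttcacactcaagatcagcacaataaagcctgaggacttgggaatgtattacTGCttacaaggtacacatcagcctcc

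These stretches are chr12:115868773-115868841 (minus strand) for Ighv1-78, chr6:68256784-68256869 (plus) for Igkv14-111, chr12:115802648-115802716 (minus) for Ighv1-74, chr6:69764523-69764608 (minus) for Igkv12-46, chr12:113838526-113838596 (minus) for Ighv5-16 and chr6:68862265-68862350 (minus) for Igkv1-88. Over the 63 bases that end with the capitals, Ighv1-78 and Ighv1-74 were the same at 60 positions (95.2%), whereas Ighv1-78 and Ighv5-16 were the same at 39 (61.9%). The kappa leaders Igkv14-111 and Igkv12-46 were the same at 47 of 63 (74.6%). Segments of 1 family can be close to identical, and how reads were assigned between such segments was not measured here. The clearest case is Ighv1-62-2 and Ighv1-71, which share all 313 bases of their V exon:
Ighv1-62-2: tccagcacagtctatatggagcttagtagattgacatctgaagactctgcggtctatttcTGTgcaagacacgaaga
Ighv1-71: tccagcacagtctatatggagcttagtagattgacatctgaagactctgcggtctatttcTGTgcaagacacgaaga

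The Ighv1-62-2 stretch is chr12:115446409-115446485 and that of Ighv1-71 is chr12:115742205-115742281, both on the minus strand. Both rows held the same expected counts in every library, 459.5 in sum each, with values of 83.5, 58.5 and 160.5 that are not whole in mouse 3 of EV and mice 3 and 5 of sgZrsr2. Each of this pair is therefore uncertain by itself, and only their sum is measured. Of the 147 V segments, 61 had a value that was not whole in at least 1 library, which marks reads divided between similar segments. One further pair, Ighv1-20 and Ighv9-2, also had equal counts in every library: both were seen in sgZrsr2 mouse 3 alone, with 80 counts each.

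As a check of the labels, Zrsr2 was at 50.6 to 62.2 CPM (counts per library scaled to a common total, here with TMM factors) in the EV libraries and at 31.7 to 44.4 in the sgZrsr2 libraries, without overlap (exact permutation test, two-sided, p = 0.0159, the lowest that 5 against 4 libraries can give). The libraries held 23238264 to 45585531 expected counts, and a count of 0 allows up to 0.0663 to 0.134 CPM (3 counts), a limit for counting error only. Among markers of the sort, Cd34 was at 544 to 705 CPM and Kit at 247 to 632 CPM in all 9 libraries. Mouse 5 of the EV group and mice 3 and 5 of the sgZrsr2 group stood apart in erythroid genes, with Car1 at 25.4, 39.3 and 35.5 CPM against 0 to 0.422 in the other 6; they are called the 3 Car1-high libraries here. The test is also given without them where that turns a direction.

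The members together took between 0.0181% (EV mouse 4) and 0.818% (EV mouse 5) of a library's counts. EV mouse 4 was the deepest library of all and held the fewest member counts, 8242. The sgZrsr2 libraries lay between 0.178% and 0.626%, inside the range of the EV libraries. Bulk RNA does not tell fewer cells of a type from less RNA per cell.

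Ighm (ENSMUSG00000076617; chromosome 12, 113418950 to 113422730, minus strand, GRCm38) had the most counts of all members, 424181 in sum. It was at 1378, 573, 174, 150 and 4580 CPM in the EV libraries and at 537, 1454, 2739 and 546 CPM in the sgZrsr2 libraries. EV mouse 5 was the highest and EV mice 3 and 4 the lowest of the 9, and the groups overlapped over the whole range of the sgZrsr2 libraries. The log2 fold change with sgZrsr2 was -0.06 (SE 0.93), with an edgeR quasi-likelihood adjusted p of 0.988 and a two-sided exact permutation p of 1. The sign rests on single libraries: without EV mouse 5 the log2 fold change was 1.22, with an edgeR adjusted p of 0.638. It was 0.83 (edgeR adjusted p = 0.758) without the 3 Car1-high libraries.

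Igha, listed in the table under the clone name AC160982.1 and matched by its Ensembl identifier (chromosome 12, 113258768 to 113260236), was the second most abundant. Its levels were 497, 166, 3067, 0.377 and 644 CPM in the EV libraries and 834, 950, 1434 and 593 CPM in the sgZrsr2 libraries. The EV libraries thus spanned nearly everything from 17 counts in mouse 4 to 98387 in mouse 3, while the 4 sgZrsr2 libraries lay between 593 and 1434 CPM. The log2 fold change was 0.12 (SE 1.23; edgeR adjusted p = 0.982), and it was -0.21 without EV mouse 4 and 1.54 without EV mouse 3.

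Igkc, the only constant segment of the kappa locus (chromosome 6, 70726435 to 70726757), was at 182, 69.1, 658, 13.5 and 805 CPM in the EV libraries. In the sgZrsr2 libraries it was at 246, 332, 497 and 175 CPM. EV mice 5 and 3 were the highest and EV mouse 4 was the lowest, with all sgZrsr2 libraries between them. The log2 fold change was -0.15 (SE 0.87; edgeR adjusted p = 0.971), 0.44 without EV mouse 5 and 0.22 without EV mouse 3.

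The IgG constant segments were present in some mice and nearly missing in others. Ighg2b was at 477.7 and 121.8 CPM in EV mice 3 and 5 but at 1.30, 0.0884 and 0.111 CPM in EV mice 1, 2 and 4. All 4 sgZrsr2 libraries had it, at 270, 243, 95.7 and 16.5 CPM. Its log2 fold change was 0.38 (SE 1.69; edgeR adjusted p = 0.963), -0.04 without sgZrsr2 mouse 1 and 2.33 without EV mouse 3. With limma-voom and quality weights, which weight the libraries unequally, the Ighg2b log2 fold change was 8.04 (unadjusted p = 0.000783, adjusted p = 0.149).

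Ighg1 was at 42.2, 90.4 and 46.6 CPM in the 3 Car1-high libraries and had at most 2 counts in each of the other 6. The row did not pass the filter on low counts and has no edgeR test (exact permutation p = 0.333). Ighg3 was at 44.9 and 81.7 CPM in EV mice 2 and 5. With sgZrsr2 it was at 19.3 CPM in mouse 3 and 19.8 CPM in mouse 5. The remaining 5 libraries had 0 to 1.68 CPM of it. Its log2 fold change was -1.38 (SE 1.77; edgeR adjusted p = 0.845), and -0.25 without EV mouse 5.

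Ighg2c and Iglc2, constant genes that the table lists as protein-coding, fell outside the rule although they had 34039 and 7379 counts in sum. Ighg2c was at 587 CPM in EV mouse 3 while sgZrsr2 mice 5, 3 and 1 had 187, 112 and 85.6 CPM of it, against 0.04 CPM in sgZrsr2 mouse 2. Counting it lowered the share of Ighm among the heavy chain constant counts most in sgZrsr2 mouse 5, from 44.7% to 38.7%.

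**Figure D1:**
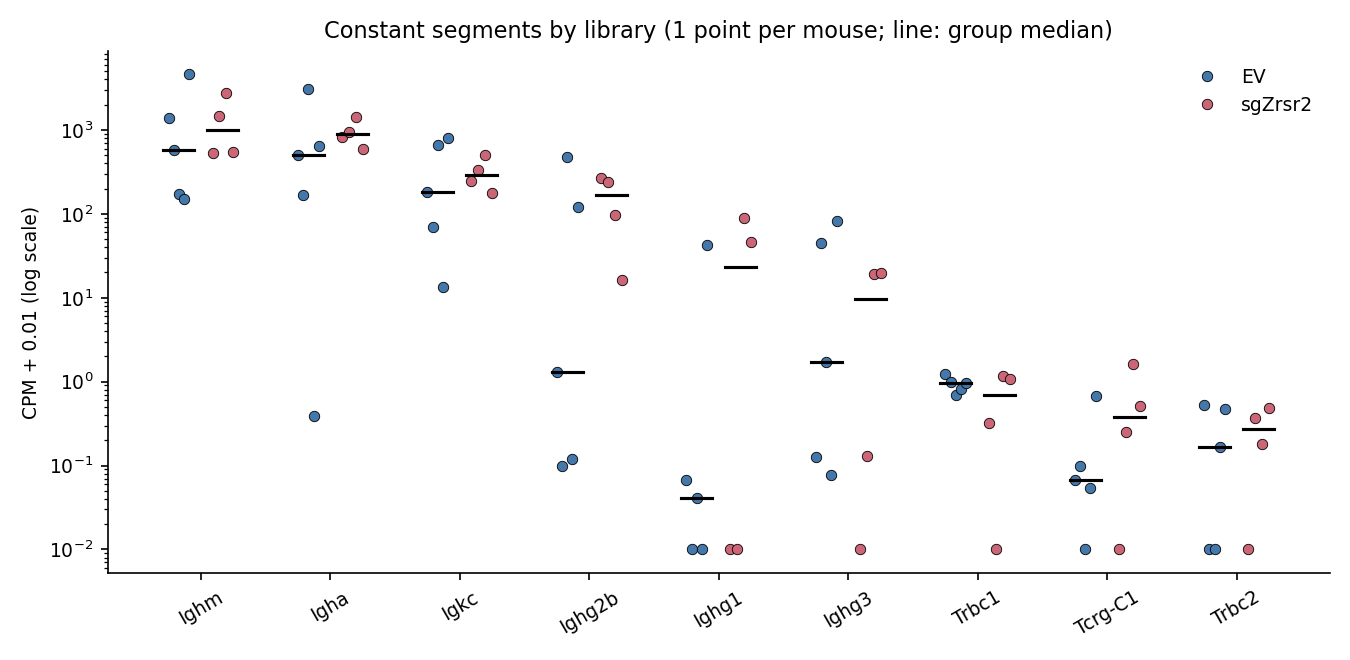
Level of each of the 9 constant segments (CPM plus 0.01, log axis) with 1 point per mouse, EV in blue and sgZrsr2 in red, and a line at the group median. Ighm, Igha and Igkc were seen in all libraries and the groups overlap for each segment, Ighg1 and Ighg3 lie either above 1 CPM or near 0, and the T cell receptor constants lie under 2 CPM.

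The classes of heavy chain differed widely between mice of 1 group. Ighm took 99.6% of the Igh constant counts of members in EV mouse 4, 83.7% in EV mouse 5 and 73.4% and 73.1% in EV mice 1 and 2, but 4.68% in EV mouse 3. In EV mouse 3 it was Igha that led, with 82.4%, followed among the members by Ighg2b with 12.8%. Ighg2c, outside the rule, had 18829 counts in that library against 15323 of Ighg2b. Ighm took 32.7%, 54.9%, 62.5% and 44.7% in the sgZrsr2 libraries, where Igha took 50.8%, 35.9%, 32.8% and 48.5%. Igha thus led in 3 libraries (mouse 3 of EV, mice 1 and 5 of sgZrsr2) and Ighm in the other 6.

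Ighm and Igkc can be set beside each other per kilobase of exon. The exon lengths are those of GENCODE M21, which can differ from those the authors used. For Igkc that length, 532 bases, is longer than its whole deposited stretch (70726435 to 70726757), so the ratios below can be too high. The order of the libraries does not depend on it. On this scale the ratio of Ighm to Igkc was 2.13, 2.34, 0.0746, 3.13 and 1.61 in the EV libraries. It was 0.617, 1.24, 1.55 and 0.88 in the sgZrsr2 libraries. EV mouse 4, the library with the least Igkc, had the highest ratio, and EV mouse 3 the lowest.

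Constant segments took most of the member counts in each library. Their share was 84.3%, 85.5%, 79.2%, 89.9% and 80.1% in the EV libraries (83.8% ± 4.35, SD, n = 5) and 72.7%, 81.1%, 83.5% and 82% in the sgZrsr2 libraries (79.8% ± 4.83, SD, n = 4). EV mouse 4 was the highest and sgZrsr2 mouse 1 the lowest, and the other 7 lay between 79.2% and 85.5%. The 95% Wilson intervals of these shares are at most 1.3 percentage points wide. Longer segments collect more reads: per kilobase of exon, for the 151 members with a length, the share was 56% ± 8.45 with EV and 48.6% ± 7.37 with sgZrsr2. The M21 lengths of some constant segments, such as Igha (2668 bases for 113258768 to 113260236), exceed the deposited stretch. The share per kilobase can be too low for that reason and depends on the annotation. A share over chosen members was given no test.

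Within the Igk locus, V and constant counts were of similar size. For every 100 counts of Igkc there were 99.9, 98.2, 105, 72 and 122 counts of Igk V segments in the EV libraries. The sgZrsr2 libraries had 137, 117, 88.1 and 94.3. The Igk V sum therefore stayed within 72 to 137 per 100 while Igkc itself ran from 13.5 to 805 CPM.

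The Igh locus gave a lower yield of V counts. It had 9.57, 8.95, 10.4, 5.38 and 10.2 V counts per 100 constant counts in the EV libraries and 16.4, 11.2, 10.5 and 11.2 in the sgZrsr2 libraries. These constant counts are those of the members and leave out Ighg2c. EV mouse 4 was the lowest and sgZrsr2 mouse 1 the highest. Per kilobase of M21 exon the ratio of V to constant counts was 0.283 to 1.03 in Igh and 1.02 to 1.95 in Igk. On these lengths Igk was the higher in each of the 9 libraries. The Igkc length used, 532 bases, is longer than its deposited stretch, which can raise the Igk ratios. The Igha length used, 2668 bases, likewise exceeds its deposited stretch, which can raise the Igh ratios. The ratios were not recomputed with deposited lengths, so the order of the loci is uncertain. In Igh the ratio was lowest in EV mouse 4 (0.283) and EV mouse 2 (0.371), and the highest EV value was that of EV mouse 3 (0.713).

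The summed level of the V segments was 384, 145, 1149, 18.2 and 1563 CPM in the EV libraries (652 ± 672, SD, n = 5) and 707, 694, 964 and 308 CPM in the sgZrsr2 libraries (668 ± 271, SD, n = 4). The lowest and the highest value were both EV libraries. The mean over the EV libraries depends on single mice: it was 424 CPM without mouse 5 and 810 CPM without mouse 4. The sgZrsr2 mean ran from 569 to 788 CPM when single mice were left out.

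How many V segments carried these counts did not follow their sum. The number of V segments with at least 10 counts was 41, 28, 16, 3 and 98 in the EV libraries and 14, 30, 113 and 64 in the sgZrsr2 libraries. The 3 Car1-high libraries had the most. EV mouse 3 had 16 such segments although its V sum was the second highest. An effective number, the inverse of the sum of squared shares, would be 1 if a single segment held all counts of a locus. For Igh it was 9.99, 9.52, 1.27, 1.23 and 4.05 in the EV libraries and 2.73, 7.13, 17.6 and 14.1 in the sgZrsr2 libraries. For Igk it was 8.55, 7.85, 1.17, 1.05 and 2.58 in the EV libraries and 4.19, 8.97, 20.6 and 15.1 in the sgZrsr2 libraries. In both loci EV mice 3, 4 and 5 and sgZrsr2 mouse 1 were the 4 lowest and sgZrsr2 mice 3 and 5 the highest.

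In EV mouse 3 a single V segment led each chain. The Ighv1-78 whose end is printed above held 10954 counts there, 88.6% of the Igh V counts (95% Wilson interval 88.1% to 89.2%). Igkv14-111 held 20577 counts, 92.5% of the Igk V counts (92.1% to 92.8%). In the other 8 libraries Ighv1-78 had 0 to 822 counts and Igkv14-111 had 0 to 1870, each with its second highest value in EV mouse 5. The heavy chain constant counts of the same library were mostly Igha.

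EV mouse 4 had the same shape at a level far lower. Ighv1-74 held 328 of its 364 Igh V counts (90.1%, interval 86.6% to 92.8%) and Igkv12-46 held 426 of its 437 Igk V counts (97.5%, interval 95.5% to 98.6%). No other Igh or Igk V segment reached 10 counts in that library; the second in Igk, Igkv14-111, had 3. Neither segment was particular to this mouse: Igkv12-46 was at 9.46 CPM here and at 11 CPM (452 counts) in sgZrsr2 mouse 3, and Ighv1-74 had 138 counts in EV mouse 3 and 122 in sgZrsr2 mouse 5.

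EV mouse 5 combined leading segments with a broad remainder. Ighv5-16 held 8861 counts (46.1%, interval 45.4% to 46.9%), followed by Ighv11-2 with 3157 (16.4%). Igkv1-88 held 20486 counts (60.8%, interval 60.3% to 61.3%), followed by Igkv14-126 with 3878 (11.5%). Igkv1-88 had 112 counts in sgZrsr2 mouse 5 and at most 6 in each of the other 7. Ighv5-16 reached 875 counts in sgZrsr2 mouse 2, 83 in sgZrsr2 mouse 3 and 52 in sgZrsr2 mouse 5 and at most 2 in the other EV libraries.

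The leaders of the remaining libraries, like those above that are not among the 3 with most counts of their locus, were chosen for naming after their values were seen. Ighv6-3 (19.4%) and Igkv6-17 (25.8%) led in EV mouse 1, and Ighv1-53 (17.9%) and Igkv10-96 (23.5%) led in EV mouse 2. In sgZrsr2 mouse 1 the 3 highest Igh segments held 92% of the Igh V counts, with Ighv1-26 first (51.5%) and Ighv4-1 second (28.8%). Its Igk V counts were led by Igkv8-30 (31.9%) and Igkv1-135 (28.2%). In sgZrsr2 mouse 2 Ighv4-1 (24.2%) and Igkv16-104 (20.6%) were first. The flattest libraries were sgZrsr2 mouse 3, led by Ighv6-3 (13.1%) and Igkv3-2 (10.6%), and sgZrsr2 mouse 5, led by Ighv1-61 (18.4%) and Igkv1-117 (14.8%).

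**Figure D2:**
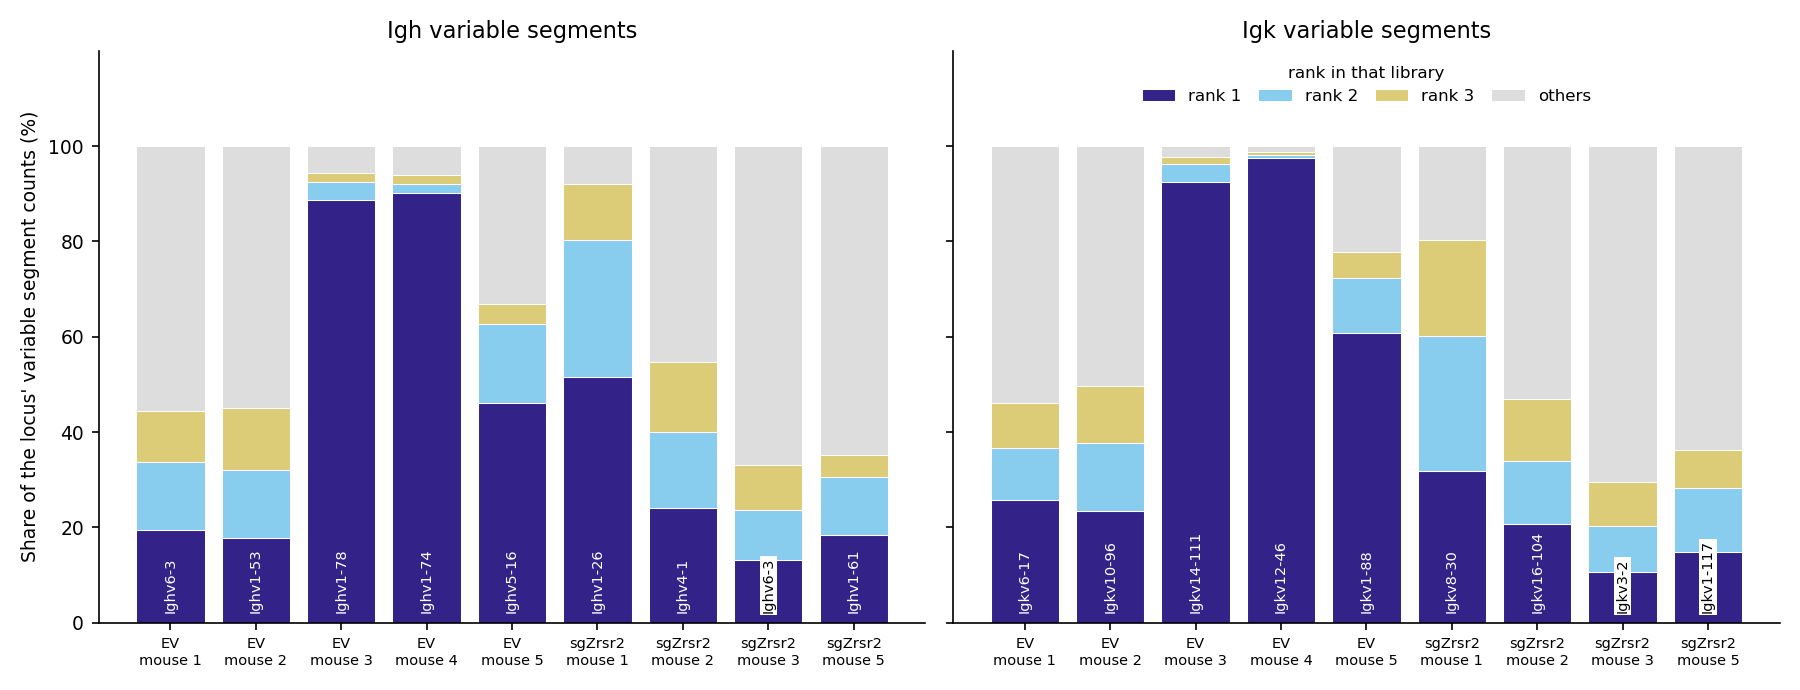
Share of the Igh (left) and Igk (right) V counts held by the 3 highest V segments of each library and by all others, in percent, with the name of the first segment in its bar. EV mice 3 and 4 are nearly filled by 1 segment in both loci, and sgZrsr2 mice 3 and 5 are mostly filled by segments below these 3.

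Few V segments were common to many libraries. Of 147, 32 reached 10 counts in 1 library, 38 in 2, 27 in 3 and 22 in 4, while 17 did so in 5, 5 in 6, 1 in 7 (Igkv10-96) and 1 in 8 (Iglv1); 4 reached it in none. In 113 of 147 a majority of the summed CPM came from 1 library, and in 38 over 90% did. Among the 9 constant segments this majority was found for 2, Ighg1 and Tcrg-C1, both highest in sgZrsr2 mouse 3. Of the 147, 55 had their highest level in sgZrsr2 mouse 3, 26 in EV mouse 5 and 18 in EV mouse 1, but 1 in EV mouse 4.

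Some segments were seen in 1 mouse alone. Ighv2-9 had 639 counts and Ighv5-4 had 221, all in EV mouse 5. Ighv1-36 had 104 counts, all in EV mouse 3, and Ighv2-6 had 100, all in sgZrsr2 mouse 3. AC073565.3, an Igh V segment named after its values were seen, was instead above 0 in all 9 libraries, with 3 to 25 counts in each, as were Iglv1 and Trav6-7-dv9 and no other V segment.

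sgZrsr2 mice 1 and 2 shared several leading segments. Ighv1-26 had 3106 and 1175 counts in them, Ighv4-1 1737 and 1791, Igkv1-135 2128 and 1281, and Ighg2b 6056 and 6071. Yet Igkv16-104 had 0 counts in mouse 1 and 2008 in mouse 2, and Ighg2c had 1923 and 1. Of the V segments with at least 10 counts, 8 were common to both, which is 57.1% of the 14 in mouse 1 and 26.7% of the 30 in mouse 2. The 12 that mouse 1 shared with sgZrsr2 mouse 3 were 85.7% of its 14 and 10.6% of the 113 in mouse 3. The overlap with EV mouse 5, which had 98 such segments, was of similar size: it held 11 of the 14 of sgZrsr2 mouse 1 (78.6%) and 24 of the 30 of sgZrsr2 mouse 2 (80%).

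**Figure D3:**
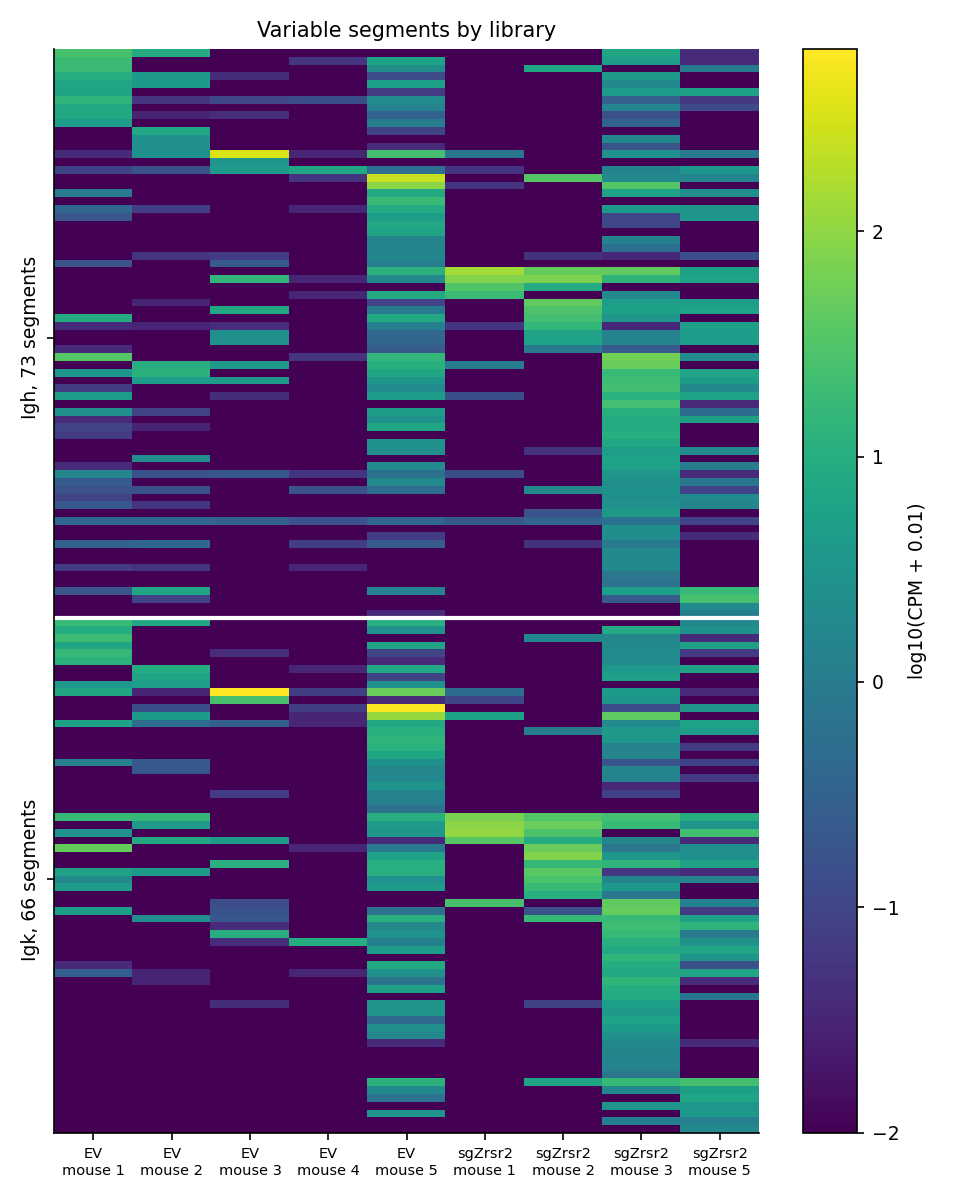
Level of the 73 Igh and 66 Igk V segments (rows) in the 9 libraries (columns) as log10 of CPM plus 0.01, with rows ordered by the library of their highest value. Different libraries have different high segments, EV mouse 4 has 1 bright row in each locus, and EV mouse 5 and sgZrsr2 mouse 3 have values in most rows.

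Of the 3 lambda V segments, Iglv1 was at 18.8, 0.818, 70, 0.0222 and 20.5 CPM in the EV libraries and at 101.1, 2.36, 40.8 and 3.59 CPM in the sgZrsr2 libraries. It was highest in sgZrsr2 mouse 1 and EV mouse 3 (log2 fold change 0.75, SE 1.39; edgeR adjusted p = 0.9). Iglv2 reached 24.4 CPM in sgZrsr2 mouse 3 and 0 to 5.56 CPM elsewhere, and Iglv3 stayed at or under 1.7 CPM. Iglc2, a lambda constant gene, had its highest level in sgZrsr2 mouse 3 (96.6 CPM) and its lowest in EV mouse 4 (0.0666 CPM).

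The T cell receptor members were scarce. Trbc1, a constant segment of the beta chain, was at 1.21, 0.973, 0.686, 0.799 and 0.96 CPM in the EV libraries and at 0.312, 0, 1.14 and 1.06 CPM in the sgZrsr2 libraries. The EV libraries were close to each other (0.925 ± 0.198 CPM, SD, n = 5), and the groups overlapped (log2 fold change -0.52, SE 0.74; edgeR adjusted p = 0.862). Trbc2 had at most 17.8 counts in a library, and since reads are divided between Trbc1 and Trbc2, with values that are not whole in both, each is uncertain.

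Trbv13-2 was the only T cell receptor V segment to reach 10 counts in any library, at 1.64 CPM (59 counts) in sgZrsr2 mouse 5 and at 0 to 0.582 CPM elsewhere. Trbv12-2, Trbv1, Trav6-7-dv9 and Trav13-4-dv7 had at most 7 counts per library. Tcrg-C1, a constant segment of the gamma chain, had 23, 67 and 18 counts in the 3 Car1-high libraries and 0 to 6 elsewhere. Tcrg-C4, listed with the biotype of a joining segment under the name Tcrg-C, had 0 to 13 counts per library. Trac, the constant segment of the alpha chain, was under the threshold with 4 counts in sum. Of the diversity and joining rows, 112 of 113 were at 0 in all libraries, the exception being Tcrg-C4.

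Between the groups, no member passed the test. Of the 157 members 53 passed the filter on low counts (7 constant and 46 V), which asks for enough counts in at least 4 libraries and so leaves out segments seen in few mice. In edgeR's quasi-likelihood test 0 of 53 had an adjusted p under 0.05, where 0% of the 14944 genes tested did. At an unadjusted p under 0.05 there were 6 of 53, where 6.85% of all genes were. Of these 6, 4 were higher with sgZrsr2 (3.87% of all genes) and 2 lower (2.98%). Members share reads and mice, so this count is a description. No member, of all 157, had groups that did not overlap in CPM, against 3.06% of all genes tested. The median log2 fold change of the 53 was 0.70, that of all genes tested -0.01. This median is no measure of a shift with sgZrsr2, since a member can pass the filter through the 4 sgZrsr2 libraries alone. Of the 147 V segments, 55 had their highest level in sgZrsr2 mouse 3. Without the filter 54 of 157 had an unadjusted p under 0.05, where 6.03% of 22387 genes did, and 0 had an adjusted p under 0.05. That fit takes in segments seen in few mice: 93 of the 147 V segments were at 0 in at least 5 libraries. The 54 are therefore a description as well and no measure of a difference between the groups.

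The 5 members with the smallest p were all V segments, and none of them was seen evenly in either group. Igkv1-135 was at 0, 3.85, 0, 0 and 4.1 CPM in the EV libraries and at 94.7, 51.2, 18.3 and 3.14 CPM in the sgZrsr2 libraries. All 4 sgZrsr2 libraries had it, and sgZrsr2 mouse 5 lay below the 2 EV libraries that had it. The log2 fold change was 4.71 (SE 1.41; edgeR unadjusted p = 0.00674, adjusted p = 0.714; exact permutation p = 0.0476). Without sgZrsr2 mouse 1 the log2 fold change was 3.92 (edgeR unadjusted p = 0.0276).

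Ighv1-26 was at 0 in EV mice 1 to 4 and at 12.1 CPM in EV mouse 5, and at 138, 47, 43.5 and 5.45 CPM in the sgZrsr2 libraries. The log2 fold change was 4.61 (SE 1.65; edgeR unadjusted p = 0.0176, adjusted p = 0.714; exact permutation p = 0.0317). Without sgZrsr2 mouse 1 the log2 fold change was 3.72 (edgeR unadjusted p = 0.0647). Without EV mouse 5 all EV libraries were at 0, and the fitted value of 14.01 (edgeR unadjusted p = 0.000111, adjusted p = 0.451) is no bound on the change. Igkv8-30 was at 2.65 and 3.46 CPM in EV mice 1 and 5 and at 0 in the other 3 EV libraries. In sgZrsr2 mice 1, 2, 3 and 5 it was at 107, 28.9, 0 and 22.2 CPM. The log2 fold change of Igkv8-30 was 5.04 (SE 1.68, edgeR adjusted p = 0.714, exact permutation p = 0.0952). Without sgZrsr2 mouse 1 it was 3.81, with an edgeR unadjusted p of 0.0593. The ends of these 3 segments are shown because they had the smallest p among the members:
Igkv1-135: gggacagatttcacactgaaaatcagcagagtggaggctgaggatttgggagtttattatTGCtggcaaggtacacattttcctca
Igkv8-30: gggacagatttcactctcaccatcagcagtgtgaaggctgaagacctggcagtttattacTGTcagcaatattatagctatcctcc
Ighv1-26: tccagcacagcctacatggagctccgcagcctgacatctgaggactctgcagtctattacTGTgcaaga

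These are chr6:67610423-67610508 (plus strand), chr6:70117061-70117146 (minus) and chr12:114788372-114788440 (minus). Over the 63 bases that end with the capitals, Ighv1-26 and Ighv1-74 were the same at 60 (95.2%).

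The 2 with lower values in sgZrsr2 were the leaders of EV mouse 3. Igkv14-111 was at 7.14, 0.0221, 642, 0.0666 and 54.4 CPM in the EV libraries and at 0.49, 0, 4.09 and 0.0278 CPM in the sgZrsr2 libraries. Its log2 fold change was -6.79 (SE 2.43; edgeR adjusted p = 0.714; exact permutation p = 0.175), and -3.69 with an edgeR unadjusted p of 0.0882 without EV mouse 3. Ighv1-78 was at 0.0288, 2.63, 342, 0.0222 and 23.9 CPM in the EV libraries and at 0.757, 0, 2.72 and 0.946 CPM in the sgZrsr2 libraries. Its log2 fold change was -5.96 (SE 2.22; edgeR adjusted p = 0.714; exact permutation p = 0.365), and -2.56 without EV mouse 3.

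The DESeq2 Wald test called 4 members where edgeR called none. These, named for that call, were 4 of the 84 members to which it gave an adjusted p, against 0.16% of 16214 genes. Ighv5-15 (AC160985.1) had 711 and 225 counts in sgZrsr2 mice 1 and 2 and 0 in the other 7 libraries. Igkv6-32 had 598 and 111 counts in sgZrsr2 mice 3 and 5 and 0 elsewhere. Igkv12-41 (AC155333.3) had 257 and 34.2 counts in sgZrsr2 mice 2 and 3 and 0 elsewhere. Ighv1-81 (AC160990.2) had 1090, 196 and 177 counts in sgZrsr2 mice 2, 3 and 5, 1 in EV mouse 2 and 3 in EV mouse 5. Each of the 4 was thus missing in at least 1 sgZrsr2 library, and none of them passed the filter of the edgeR fit.

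**Figure D4:**
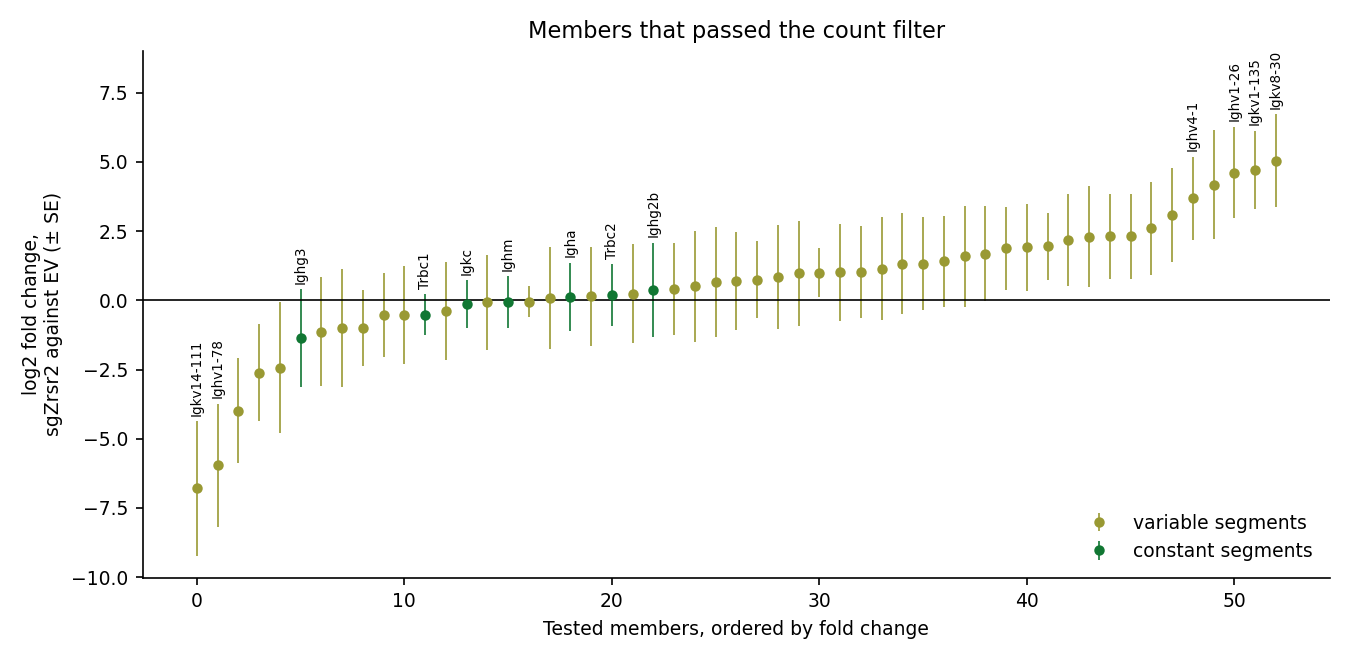
Log2 fold change of sgZrsr2 against EV, with its SE, for the 53 members that passed the filter, ordered by size, with constant segments in green and V segments in olive; constant segments and members with an unadjusted edgeR p under 0.05 are named. The constant segments lie between -1.38 and 0.38, the V segments between -6.79 and 5.04, and no member passed the adjusted threshold.

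Genes that act with the receptors were read beside the members. The RAG recombinase and the proteins that join DNA ends form a list of 13 genes, of which 13 were tested and 0 passed. In this list 1 gene had an unadjusted edgeR p under 0.05, where 6.85% of all genes tested did. That gene was Xrcc6, which codes for Ku70, an end-binding protein (log2 fold change -0.25, edgeR unadjusted p = 0.0341, adjusted p = 0.714). The median of the list was -0.20. Rag1, the catalytic subunit of the recombinase, was at 17.8, 5.3, 0, 1.55 and 6.57 CPM in the EV libraries and at 0.356, 0, 9 and 2.67 CPM in the sgZrsr2 libraries. It was thus at 0 counts in EV mouse 3 and sgZrsr2 mouse 2, which had 658 and 332 CPM of Igkc, and highest in EV mouse 1. Dntt, the polymerase that adds bases at the joints, was at 82.6 to 281 CPM with EV and at 51 to 200 CPM with sgZrsr2 (log2 fold change -0.88; edgeR adjusted p = 0.714).

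The partners of the pre-B and B cell receptor were at low levels. Of 6 listed genes 5 were tested, 0 had an unadjusted p under 0.05 and all 5 were lower with sgZrsr2, with a median of -1.05. Igll1, a part of the surrogate light chain, was at 7.17 CPM in EV mouse 1 and at 0.32 to 1.68 CPM in the other 8 libraries. Vpreb1, the other part, was at 7.78 CPM in EV mouse 1 and at 0.44 to 2.14 CPM elsewhere. Vpreb3 was at 3.77 CPM in EV mouse 1 and at 0 to 0.973 CPM elsewhere. EV mouse 1 alone was thus high in Igll1, Vpreb1 and Vpreb3. All 5 tested partners had their highest value in EV mouse 1. Their lower values with sgZrsr2 and the median can therefore rest on that library, and the median was not computed without it. Cd79a, a signalling chain of the B cell receptor, was at 9.85, 1.52, 9.82, 3.11 and 8.23 CPM in the EV libraries and at 3.52, 5.08, 8.66 and 2.87 CPM in the sgZrsr2 libraries.

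Of 7 partners of the T cell receptor 3 were tested and 0 had an unadjusted p under 0.05 (median -0.01). Cd3d, Cd3e and Cd3g, the signalling chains that every T cell receptor needs at the surface, were at 0 to 0.0873 CPM, and Ptcra, the pre-T alpha chain, was at 0 in all 9 libraries. Of 25 factors that act on the receptor loci, all were tested and 0 passed the adjusted threshold, with a median of -0.12. Pou2f1, an octamer-binding factor, had a log2 fold change of 0.44 (edgeR unadjusted p = 0.00792, adjusted p = 0.714). Ezh2, a histone methyltransferase, had one of -0.44 (edgeR unadjusted p = 0.0121, adjusted p = 0.714).

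Plasma cell markers were read beside the constant segments. Jchain, which joins IgA and IgM into polymers in plasma cells, was at 189, 59, 659, 10.1 and 383 CPM in the EV libraries and at 207, 274, 376 and 102 CPM in the sgZrsr2 libraries. The 3 libraries with most Jchain, those of EV mice 3 and 5 and of sgZrsr2 mouse 3, were the 3 with most Igkc, and EV mouse 4 was lowest in both. Ighm had another order, since EV mouse 3, with the most Jchain, had the second lowest Ighm. Irf4, a factor of plasma cells and other lymphocytes, was at 19.2, 17.4 and 12.55 CPM in those 3 libraries and at 1.44 to 6.88 CPM in the other 6. Mzb1, Sdc1, Prdm1 and Eaf2 of the list were also highest in those 3 libraries. Tnfrsf17, Derl3, Slamf7 and Ly6k were highest in EV mouse 5 and sgZrsr2 mouse 3, but EV mouse 3 was not next. The remaining markers, Xbp1, a factor of secretory cells, and Fkbp11, went the other way. They were highest in EV mouse 4, at 160.7 and 12.05 CPM, against 95.85 to 142 and 2.42 to 7.24 CPM elsewhere. All 12 plasma cell markers were found and tested, and their sum was 193 to 848 CPM with EV and 251 to 600 CPM with sgZrsr2. Sdc1, a surface marker of these cells, was above 0 in every library (5.02 to 35.4 CPM), while Tnfrsf17 was at 0 in EV mouse 4 and sgZrsr2 mouse 1 and reached 1.66 CPM.

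Markers of B cells followed another order. The 12 pro-B and pre-B markers summed to 92.9, 32.1, 19.3, 13.9 and 35.5 CPM in the EV libraries and to 8.73, 9.6, 55.9 and 21.3 CPM in the sgZrsr2 libraries. EV mouse 1 was highest, with Pax5, the factor that fixes B cell fate, at 2.3 CPM against 0 to 0.73 elsewhere. Of the 12 markers of mature B cells, Ms4a1 (CD20) was at 0 to 0.465 CPM. The list summed to 265 to 447 CPM with EV and 242 to 392 CPM with sgZrsr2, most of it from Cd74, Cd37 and H2-Aa, which other blood cells express as well. No gene of the lists of pro-B, mature B or plasma cells had an unadjusted p under 0.05. The part of these cell types in the member values was not tested.

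**Figure D5:**
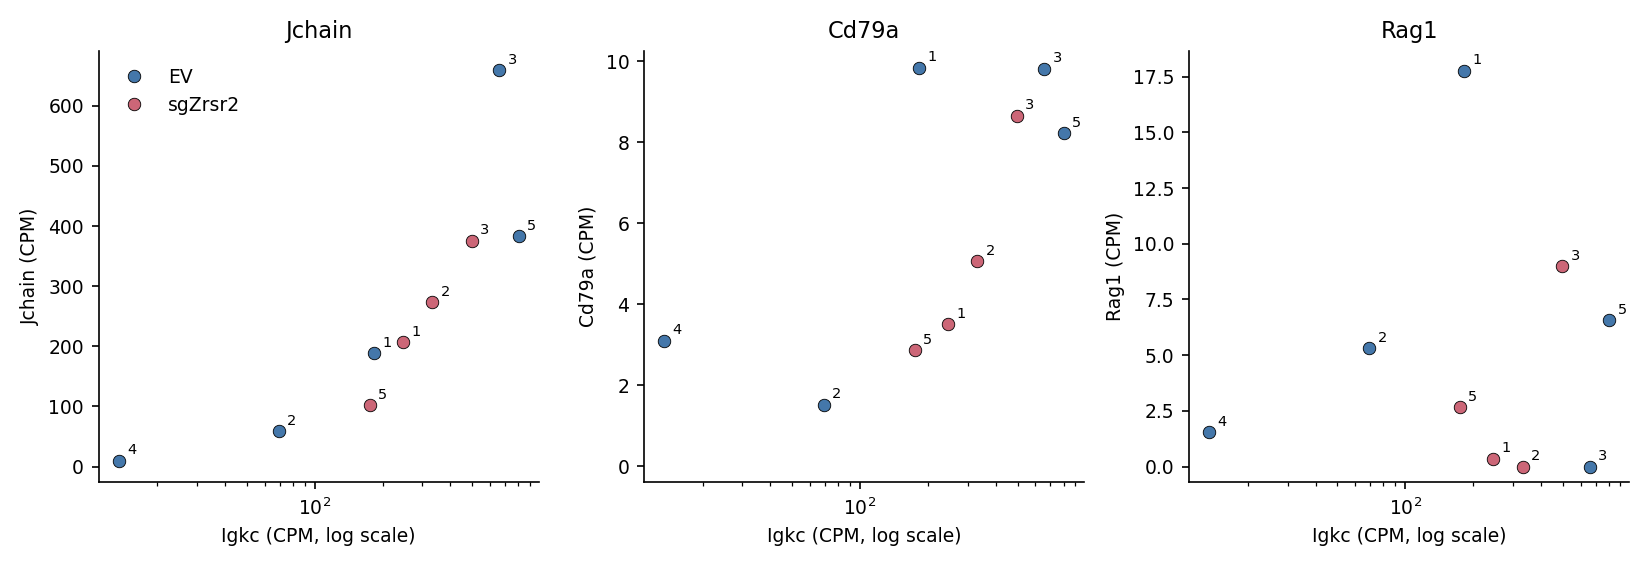
CPM of Jchain, Cd79a and Rag1 against Igkc (log axis), 1 point per library with the mouse number beside it, EV in blue and sgZrsr2 in red. Jchain was higher in libraries with more Igkc apart from EV mouse 5, which had the most Igkc and less Jchain than EV mouse 3; EV mice 1 and 3 had nearly the same Cd79a at different Igkc, and Rag1 was at 0 in EV mouse 3 and sgZrsr2 mouse 2.

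Other lists of markers were read for the same reason. The 12 T cell markers summed to 22.9 to 46.5 CPM with EV and 29.1 to 53.2 CPM with sgZrsr2, mostly from Lck and Lat, with Cd3e at 0 in 8 of 9 libraries. The 12 markers of NK and innate lymphoid cells summed to 49.1 to 78.5 and 46.1 to 75.3 CPM, and the 12 of plasmacytoid dendritic cells to 481 to 1384 and 626 to 1382 CPM. The 9 neutrophil markers were highest in sgZrsr2 mouse 3 (222 CPM) and EV mouse 5 (189 CPM) against 17 to 78.6 CPM elsewhere, and these 2 libraries also had the most V segments. Of the 11 LSK markers 2 had an unadjusted edgeR p under 0.05, where 6.85% of all genes tested did. They were Mecom (log2 fold change 0.46) and Meis1 (0.26), each with an edgeR adjusted p of 0.714. The LSK list summed to 1579 to 2168 CPM with EV and 1793 to 2244 CPM with sgZrsr2. Of the erythroid markers Rhag alone had an unadjusted edgeR p under 0.05 (log2 fold change 2.45, edgeR adjusted p = 0.714). The 9 megakaryocyte markers summed to 334 to 631 and 419 to 747 CPM, and the 9 erythroid markers to 3.9 to 63.5 and 5.3 to 146 CPM. The 11 lymphoid-primed markers summed to 1053 to 1968 and 1117 to 1614 CPM. EV mouse 4, which had the fewest members, was lowest of the 9 in the lymphoid-primed and the plasmacytoid list, and the part of either in the members was not tested.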

How the data were processed

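RNA sequencing of LSK cells from 9 mice was deposited as 1 table of RSEM expected counts per Ensembl gene, which the authors left without normalization. Per the submitters' processing notes, cutadapt 1.11, RSEM 1.2.30 and the build GRCm38 were used; the aligner, annotation and strandedness are not given in the sources used here. RSEM divides reads between similar segments, so 9.78% to 13.3% of the deposited expected counts per library were not whole.

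Counts were rounded. filterByExpr (a count of 10 and a total of 15 as minimum) kept 14944 genes, which were scaled with TMM. Groups were compared with edgeR 4.0.16 (glmQLFit, glmQLFTest; R 4.3.3), with Benjamini-Hochberg adjustment across the genes that passed, and single values with two-sided exact permutation tests over 126 splits. Levels are TMM-scaled CPM with the SD over mice. Alternatives included DESeq2 1.42.0 and limma 3.58.1. Sequences and exon lengths came from GENCODE M21; of 157 members, 151 had an exon length and 38 had the same coordinates as in the table. Current symbols were found by Ensembl ID for 151 members, and 88 carried clone names in the table.

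Named members were, by rule, the constant segments, the 3 with most counts per locus, the 5 with the smallest p, the 5 most held by 1 library (6, as the last was tied) and those at the threshold. The members, lists and rules were chosen with earlier results of these data known. Groups came from the titles and genotypes. Figures were drawn with matplotlib 3.10.9. A marker of the B cell lists is not reported here.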

Additional observations from a re-analysis of the deposited data

Results flagged for a closer look

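Each of 32 sets of values held the 5 EV or the 4 sgZrsr2 libraries for 1 measure. In 7 sets a library stood far from the others of its group by Dixon's test. For independent, normally distributed sets about 1 in 20 (1.6 of 32) would be marked. The values here are often skewed and the sets share libraries, so 7 cannot be read against that number. EV mouse 5 stood apart in Ighm (4580 CPM, the other EV libraries 149.5 to 1378), in Ighg1 (42.18 CPM, the others at 0 to 0.0576) and in Tcrg-C1 (0.669 CPM, the others at 0 to 0.0884). EV mouse 3 stood apart in Igha (3067 CPM against 0.377 to 644.3) and in Ighg2b (477.7 CPM against 0.0884 to 121.8). In Igh V counts per 100 Igh constant counts, EV mouse 4 was low at 5.38 (the others 8.95 to 10.4) and sgZrsr2 mouse 1 was high at 16.4 (the others 10.5 to 11.2). Ighg2c lies outside the rule and is not in these constant counts. It had 1923, 1, 4585 and 6720 counts in sgZrsr2 mice 1, 2, 3 and 5. Both flags of this ratio were not recomputed with it and can depend on its omission.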

How the results depend on the processing

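No setting gave a member an adjusted p under 0.05 except the DESeq2 Wald test, which called 26 genes, 4 of them members. In the fit without a filter, which takes in segments seen in few mice, 6.03% of all genes had an unadjusted p under 0.05. The count of members with one was 54 of 157 there. It was 14 with DESeq2 among 157 members, some of them without a p. When single libraries were left out it was 6 to 10, but the number tested changed as well. It was 6 of 29 without EV mouse 5, and 10 of 81, 79 and 55 without sgZrsr2 mice 1, 2 and 3. The share over all genes was not computed for DESeq2 or for these fits. The constant share per kilobase, 55.97% with EV and 48.65% with sgZrsr2, rests on M21 lengths that do not match the deposited coordinates of all segments. Of 312 alternative log2 fold changes of named members, 280 kept their sign and 32 did not. For Ighm the value was 0.11 with a replicate block, 0.15 with limma-voom, 0.83 without the 3 Car1-high libraries (an alternative chosen after seeing the data) and -0.70 to 1.22 when single libraries were left out. It turned without EV mouse 5 (1.22), sgZrsr2 mouse 1 (0.20) and sgZrsr2 mouse 5 (0.20). The replicate block turned Igkc (0.018), Ighv5-16 (3.79), Igkv14-126 (0.33) and Iglv2 (-0.56), and limma-voom turned Igkc (1.22), Ighv5-16 (4.80), Iglv2 (-1.41) and Trbv13-2 (-0.88). Without the 3 Car1-high libraries Igha (-0.068), Igkc (0.32) and Igkv14-126 (1.42) turned. Leaving out single libraries turned Igha (-0.02, -0.14 and -0.21 without EV mice 1, 2 and 4, -0.14 without sgZrsr2 mouse 3), Igkc (0.22 and 0.44 without EV mice 3 and 5, 0.05 without sgZrsr2 mouse 5), Trbc2 (-0.15 and -0.12 without EV mice 2 and 3, -0.0089 and -0.33 without sgZrsr2 mice 2 and 5), Iglv2 (-0.0011 without sgZrsr2 mouse 3), Trbv13-2 (-0.34 without sgZrsr2 mouse 5), Ighg2b (-0.036) and Iglv1 (-0.50, both without sgZrsr2 mouse 1). Leaving out single libraries, the range was -0.21 to 1.54 for Igha, -0.47 to 0.44 for Igkc, -0.036 to 2.33 for Ighg2b, -0.50 to 1.88 for Iglv1, -0.0011 to 2.59 for Iglv2, -0.34 to 1.38 for Trbv13-2, -0.33 to 0.55 for Trbc2, 3.72 to 14.01 for Ighv1-26, 3.92 to 5.38 for Igkv1-135, 3.81 to 5.95 for Igkv8-30, -9.86 to -3.69 for Igkv14-111 and -6.95 to -2.56 for Ighv1-78. With limma-voom these 5 were 10.46, 5.63, 7.43, -1.64 and -2.28, and Ighg2b was 8.04. The cause was not tested.

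Whether mice of the same number were paired is not given by the labels. The deviations of same-numbered libraries correlated at -0.227, -0.0904, -0.404 and 0.369. Of the sgZrsr2 libraries, mouse 5 alone correlated best with the EV library of its own number. These correlations cannot settle whether the mice were paired. With the replicate block 0 genes were called and 5 of 53 members had an unadjusted p under 0.05. With an SE of 0.93 for the Ighm log2 fold change, changes of that size and also larger ones could go unresolved with 9 libraries. Of 157 members, 53 had enough counts to be tested.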

Other observations

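Ighe, the constant gene of IgE heavy chains, is listed as protein-coding and so fell outside the rule. It was at 0.0444 to 0.23 CPM in the EV libraries and at 0 to 0.0243 CPM in the sgZrsr2 libraries, without overlap. These levels rest on 23 counts in sum, lie near or under the level that a count of 0 allows, and were chosen for naming after they were seen. Igkv4-69, also listed as protein-coding, had 426 counts in EV mouse 2 and none elsewhere, and Igkv4-54 had 130 in EV mouse 3 and none elsewhere.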
